A study of Mus musculus with 12 samples.

Results

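Glycolysis, gluconeogenesis and glycogen genes are the genes through which liver burns glucose, makes it, stores it and releases it. Of 33 listed genes, 30 had a transcript cluster (the set of probes that reads 1 transcription unit) carrying exactly 1 gene symbol, out of 19938 genes that had such a cluster. Where a gene had several, its value was taken from the cluster with the highest mean over the 12 arrays. The measured genes were 6 enzymes and 3 regulators of gluconeogenesis, 8 glycogen genes, 7 glycolysis genes, 2 genes of sugar entry, and 4 transaminase and malate shuttle genes. Pfkfb1, Gpi1 and Eno1 were not analysed here. Of the 30 genes, 28 had a mean log2 signal of at least 6, and Pck2 and Ppp1r3g lay below it.

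The 12 Affymetrix arrays came from a study of KK and KK-Ay mice, with 2 arrays in each of 6 groups that are named here as the array titles name them. KK is an inbred strain prone to diabetes, and KK-Ay mice carry in addition the yellow allele A-y of agouti on that background and become obese with type 2 diabetes (T2D). Mice of 42Y and 42WKK were 42 weeks old, as read from the title and the methods, with KK-Ay in the first and KK in the second. The ages of 6Y, 16Y, 6K and 1 and the strain of group 1 are not given in the sources used here. No treatment other than lab chow is named for any group.

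The records conflict on 2 points. The design text of the records lists 6Y, 16Y and 42Y as T2D and 1, 6K and 42WKK as control, while single sample records call 6K diabetic and 42Y control. The agouti signal was 6.78 to 7.06 in the 6 arrays titled Y and 5.20 to 5.51 in the other 6, so the groups are called here by title alone. The records name blood leukocytes and the methods liver. The median log2 signal of 8 hepatocyte genes was 12.9 to 13.2 in every array, and that of 4 measured T and B cell genes was 3.22 to 3.68. Array medians over all clusters were 4.74 to 4.88. The lowest Pearson correlation between any pair of arrays across clusters, which are not independent replicates, was 0.980. Within groups the correlation was lowest for the 42Y pair, at 0.983, and was 0.988 to 0.991 in the other groups. Nothing in the sources used here ties each array to a mouse of its own, so the spread that the p-values rest on is that between samples, and it may be technical.

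Liver takes up glucose through Slc2a2, traps it as a phosphate, and either burns it by glycolysis or builds it into glycogen. In fasting it breaks glycogen down and makes new glucose from lactate, alanine and glycerol, with Pck1 and G6pc as the enzymes under tightest transcriptional control. Glucagon drives that program through Creb1, Crtc2 and Ppargc1a, and insulin restrains it. Glycogen synthase is switched on when protein phosphatase 1 removes its phosphates, and the targeting subunits Ppp1r3b, Ppp1r3c and Ppp1r3g bring the phosphatase to the glycogen particle.

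Promoter sequence was available for 29 of the 33 listed genes in a RefSeq table (build GRCm38.p6), with 40 windows that each cover a transcription start and the bases just before it. The windows of Pck1 and G6pc are shown as the defining genes of gluconeogenesis, and that of Ppp1r3c as the gene whose signal differed most between groups. Each runs 5′ to 3′ on the strand of the gene, with the motif that was found in capitals.

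Pck1, chr2:173152823-173153122, plus strand: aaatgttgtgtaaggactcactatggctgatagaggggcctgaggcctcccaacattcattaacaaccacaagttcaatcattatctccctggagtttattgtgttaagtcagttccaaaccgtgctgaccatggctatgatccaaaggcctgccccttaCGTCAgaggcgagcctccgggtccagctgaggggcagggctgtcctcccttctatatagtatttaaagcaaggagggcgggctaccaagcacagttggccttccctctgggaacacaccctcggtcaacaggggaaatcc

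G6pc, chr11:101367466-101367765, plus strand: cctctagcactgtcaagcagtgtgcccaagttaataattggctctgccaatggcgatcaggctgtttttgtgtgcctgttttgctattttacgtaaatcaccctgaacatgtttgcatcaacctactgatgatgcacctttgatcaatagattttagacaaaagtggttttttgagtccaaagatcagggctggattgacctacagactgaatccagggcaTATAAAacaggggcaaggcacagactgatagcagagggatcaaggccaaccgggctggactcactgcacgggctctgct

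Ppp1r3c, chr19:36736555-36736854, minus strand: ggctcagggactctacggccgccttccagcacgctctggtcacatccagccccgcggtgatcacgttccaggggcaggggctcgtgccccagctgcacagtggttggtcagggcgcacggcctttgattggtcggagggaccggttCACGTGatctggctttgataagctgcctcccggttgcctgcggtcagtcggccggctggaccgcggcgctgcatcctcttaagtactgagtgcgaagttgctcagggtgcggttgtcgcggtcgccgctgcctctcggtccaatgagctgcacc

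The capitals in Pck1 are the cyclic AMP response core TGACG read on the other strand, at position -90 from the transcription start. Those in G6pc are the TATA box TATAAA at -29, and those in Ppp1r3c are the E-box CACGTG at -104, a motif bound by clock and carbohydrate response factors. Both strands were searched. TGACG, which also lies inside the full element TGACGTCA, was in 9 of the 40 windows against 20.8% of 32851 windows of all genes. CACGTG was in 4 of 40 (Khk, Pcx, Pfkfb3 and Ppp1r3c) against 7.15%, and TATAAA in 5 of 40 against 13.6%. The windows held no TGACGTCA (1.79% of all windows), no FOXO motif GTAAACA (3.65%) and no D-box TTATGTAA (0.938%), which says only that these letters were not in these windows.

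Across the 6 groups, 3 of the 30 genes varied beyond the spread within groups. These were Ppp1r3c (adjusted p = 0.034), Got1 (adjusted p = 0.039) and Crtc2 (adjusted p = 0.045) in limma's F test, with p adjusted over 35556 clusters by the Benjamini-Hochberg method and a call at an adjusted p under 0.05. That is 10% of the genes, and 5.43% of all clusters were called. At an unadjusted p under 0.05 in the F test there were 12 (40%). That compares with 26.4% of all clusters and 46.9% of those with a mean of at least 6, so there was no excess over clusters of like signal. The calls rested on few arrays. With each of the 12 arrays left out in turn, Crtc2 lost its call every time, Got1 every time other than without group 1 replicate 5, and Ppp1r3c every time other than without 6K replicate 2 or 42Y replicate 2. Crtc2 also lost it when each array was centred on its median. The span between the highest and lowest group mean was largest for Ppp1r3c, at 2.57 on the log2 scale, followed by Pfkfb3 at 1.90, and smallest for Pck2 at 0.18. Signals are log2 values throughout, and a difference of 1 is a 2-fold difference. Levels of different genes are not set against each other, because probes differ in brightness.

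**Figure D1:**
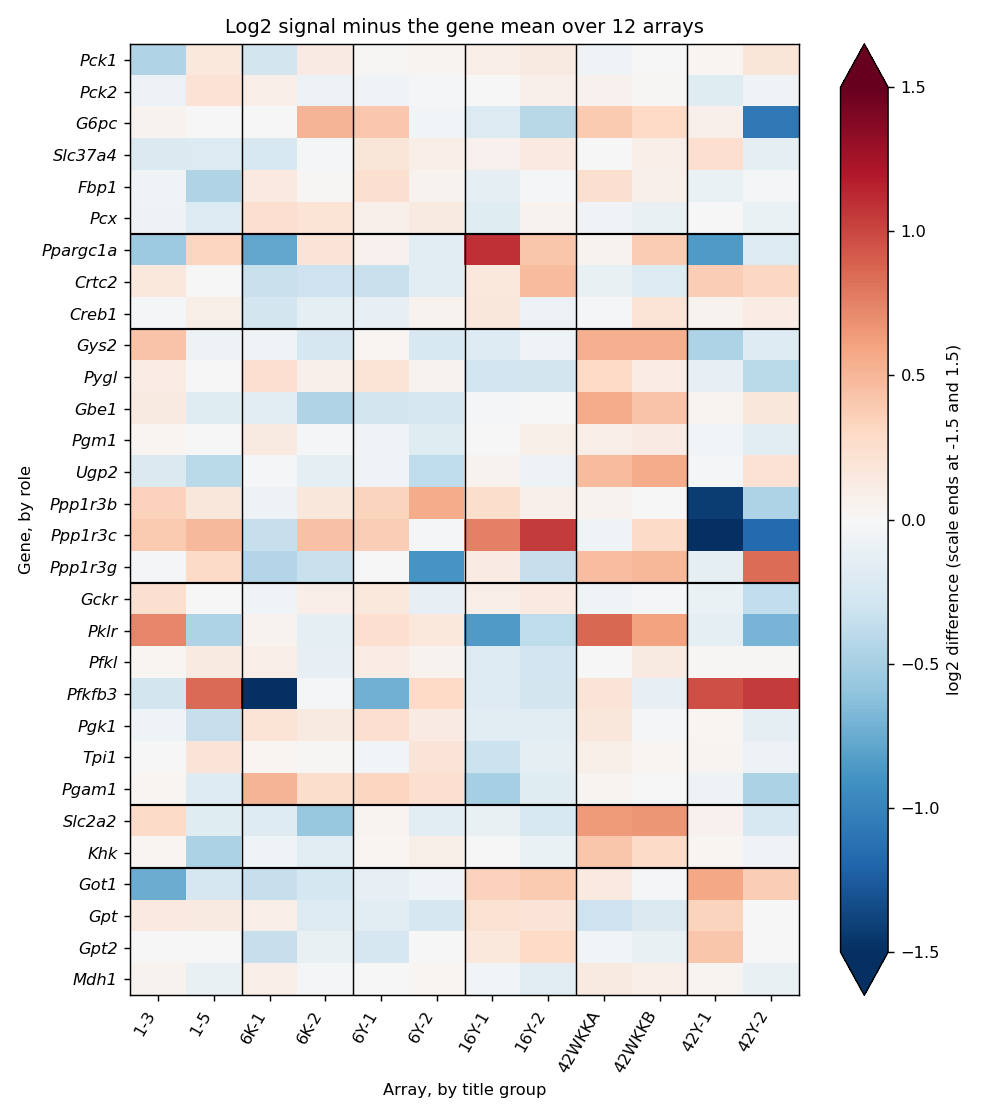
Signal of the 30 genes in the 12 arrays, as the log2 difference of each array from the mean of the 12 arrays for that gene, with genes in rows by role and arrays in columns by title group. Colours end at 1.5 either way. The columns 42Y are low for Ppp1r3b and Ppp1r3c, and the columns 42WKK are high for Gys2, Gbe1, Ugp2, Slc2a2 and Khk.

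At 42 weeks, where KK-Ay and KK mice can be set side by side at a known age, the means of all 8 glycogen genes were lower in 42Y than in 42WKK, with a median log2 fold change of -0.44. Both sugar entry genes were lower too (median -0.55). A further list of glycogen genes, 24 of them measured, had a median of -0.06 and none called. The median was -0.17 over the 30 genes, of which 22 (73.3%, against 47.4% of all clusters and 55.5% of those with a mean of at least 6) were lower. It was 0.02 over all clusters and -0.04 over the 11788 clusters with a mean of at least 6. Only Ppp1r3c was called. It was the only one called among the 30 genes, or 3.33%, where 1.85% of all clusters were called, so the share of calls was close to that of all clusters. In bulk tissue fewer cells of a type and less RNA per cell cannot be told apart.

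Ppp1r3c, a targeting subunit also known as protein targeting to glycogen, had signals of 6.26 and 7.27 in 42Y and 8.37 and 8.72 in 42WKK. It was at 8.83 and 8.92 in group 1, 8.09 and 8.88 in 6K, 8.80 and 8.40 in 6Y, and 9.19 and 9.49 in 16Y. The 2 arrays of 42Y were the lowest of all 12 and those of 16Y the highest, with no overlap with any other group. Both arrays of 16Y above the other 10 was a placing shared by Ppargc1a, so 2 of 30 genes, and by 3.82% of all clusters and 4.31% of those with a mean of at least 6. The mean of 42Y was 6.77 ± 0.71 (SD, n = 2) and that of 42WKK 8.54 ± 0.25 (SD, n = 2). Ppp1r3c fell by 1.78 (standard error 0.35, 95% interval -2.58 to -0.97, adjusted p = 0.047, limma) against 42WKK, which is 3.42-fold lower. The call was lost in 16 of 22 alternatives, among them leaving out any 1 of the 12 arrays other than 42Y replicate 2, and the fold change stayed negative in all 22, from -2.28 to -1.27.

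Against 16Y, Ppp1r3c fell by 2.57 (standard error 0.35, 95% interval -3.37 to -1.77, adjusted p = 0.033, limma), or 5.93-fold. It was again the only one of the 30 genes called, where 0.399% of all clusters were called. That call held in 10 of 22 alternatives, with fold changes from -3.07 to -2.06. Leaving out either array of 6K, or 42Y replicate 2, kept it, and leaving out any other single array lost it.

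Ppp1r3b, the main targeting subunit of liver, was at 7.32 and 8.29 in 42Y and 8.81 and 8.75 in 42WKK. The other 8 arrays lay between 8.67 and 9.30, so 42Y was again below all of them. Its difference from 42WKK was -0.97 (95% interval -1.58 to -0.36, adjusted p = 0.12, limma) and from 16Y -1.12 (adjusted p = 0.11), neither past the threshold. In both subunits 42Y replicate 1 was the lower of the pair. Ppp1r3b and Ppp1r3c were the 2 of 30 genes for which both 42Y arrays lay below the other 10, a placing found for 3.07% of all clusters and 4.06% of those with a mean of at least 6. Ppp1r3g, a further targeting subunit, lay at 4.62 to 5.54 in group means and its 42-week groups overlapped.

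Gys2, the liver glycogen synthase, had another shape. It was at 9.12 and 9.38 in 42Y and 10.11 and 10.11 in 42WKK. Group 1 was at 10.01 and 9.50, 6K at 9.53 and 9.32, 6Y at 9.61 and 9.34, and 16Y at 9.38 and 9.51. The 42WKK arrays were the highest of the 12, while the 42Y arrays overlapped with 6K, 6Y and 16Y. The difference at 42 weeks was -0.86 (standard error 0.18, 95% interval -1.28 to -0.44, adjusted p = 0.059, limma), short of the threshold, and that from 16Y was -0.19 (adjusted p = 0.69).

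Both arrays of 42WKK also lay above the other 10 for Gbe1, the branching enzyme (9.83 and 9.69, against 9.31 and 9.44 in 42Y), and for Ugp2, which makes the UDP-glucose that glycogen synthase uses (9.41 and 9.50, against 8.92 and 9.16). With Gys2, Slc2a2 and Khk this made 5 of 30 genes, or 16.7%, where 5.15% of all clusters and 11.9% of those with a mean of at least 6 were placed so. The 42-week differences of Gys2, Gbe1 and Ugp2 thus came with a high 42WKK, and those of Ppp1r3b and Ppp1r3c with a low 42Y. Pygl, the liver glycogen phosphorylase, was at 10.47 and 10.19 in 42Y, 10.31 and 10.32 in 16Y and 10.89 and 10.71 in 42WKK. Its arrays in groups 1, 6K and 6Y lay between 10.59 and 10.85, so 16Y and 42Y were the 4 lowest arrays, and the 42-week difference was -0.47 (95% interval -0.77 to -0.17, adjusted p = 0.12, limma). Pgm1, which links glucose 1-phosphate and glucose 6-phosphate, spanned only 0.23 between group means.

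**Figure D2:**
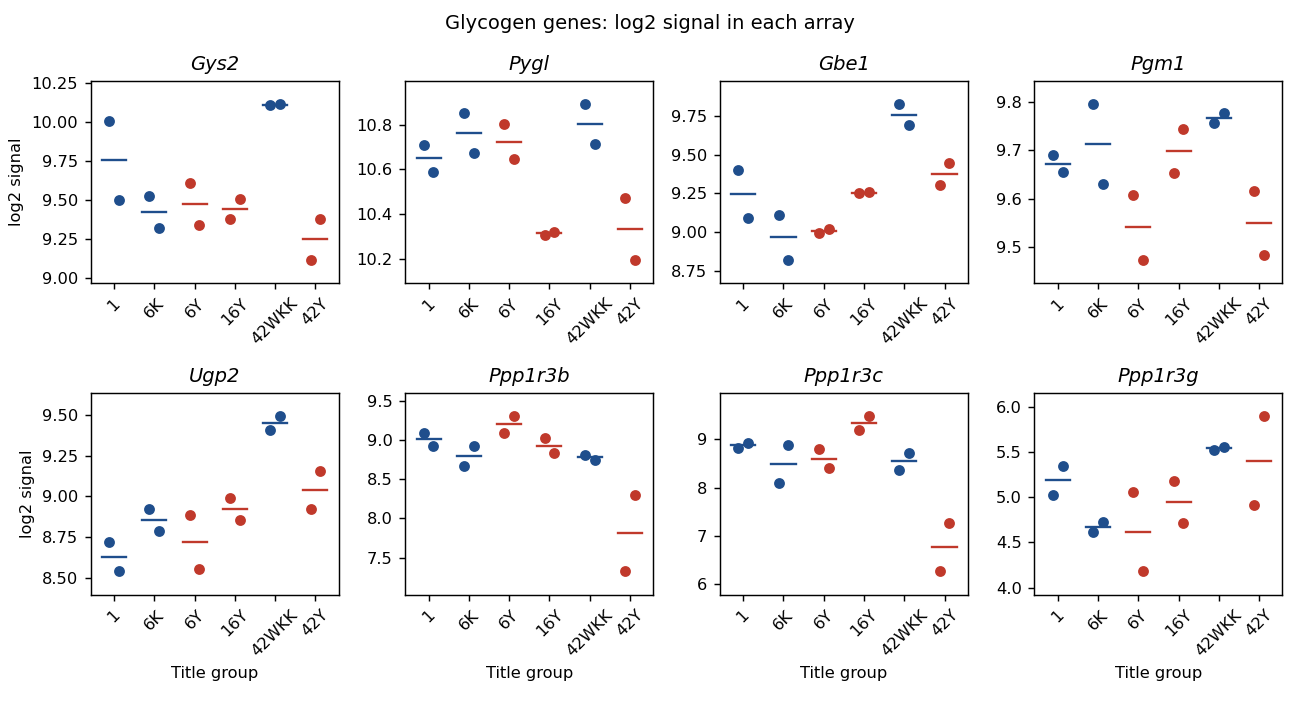
Log2 signal of Ppp1r3c, Ppp1r3b, Gys2 and other glycogen genes in the 6 title groups, with a dot for each array, a line at the group mean, and red for the groups titled Y. Ppp1r3c was at 6.26 and 7.27 in 42Y, below every other array, while Gys2 was highest in 42WKK, at 10.11 in both arrays.

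Glucose entry followed the shape of Gys2. Slc2a2, the glucose transporter of hepatocytes, was at 11.26 and 11.29 in 42WKK and 10.69 and 10.38 in 42Y. It was at 10.91 and 10.44 in group 1, 10.43 and 10.05 in 6K, 10.67 and 10.45 in 6Y, and 10.51 and 10.39 in 16Y. The 42WKK arrays stood above all others and 42Y lay within their range. The difference at 42 weeks was -0.74 (standard error 0.19, 95% interval -1.18 to -0.30, adjusted p = 0.10, limma). Khk, which phosphorylates fructose, was at 11.08 and 10.95 in 42WKK and 10.69 and 10.60 in 42Y, a difference of -0.37 (adjusted p = 0.28).

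Among the enzymes of gluconeogenesis, group means spanned from 0.18 for Pck2 to 0.40 for Fbp1, and 0.84 for G6pc. None was called in limma's F test, where the smallest unadjusted p was 0.068, for Pcx, and that of G6pc was 0.17. Pck1, which makes phosphoenolpyruvate and is a classic target of insulin, was at 12.58 and 12.73 in 42Y and 12.50 and 12.55 in 42WKK. It was at 12.10 and 12.71 in group 1, 12.28 and 12.67 in 6K, 12.57 and 12.59 in 6Y, and 12.65 and 12.68 in 16Y. The spread inside group 1 (SD 0.43, n = 2) exceeded the span of 0.26 between group means. The 42-week difference was 0.13 (95% interval -0.32 to 0.58, adjusted p = 0.80, limma). For 6Y against 6K it was 0.11 (95% interval -0.34 to 0.56, adjusted p = 0.98).

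G6pc, the glucose 6-phosphatase that releases free glucose, was at 11.70 and 10.57 in 42Y and 12.02 and 11.93 in 42WKK. It was at 11.69 and 11.63 in group 1, 11.64 and 12.14 in 6K, 12.04 and 11.59 in 6Y, and 11.43 and 11.22 in 16Y. One array, 42Y replicate 2, was the lowest of the 12, and 42Y replicate 1 lay in the middle of them. The difference of -0.84 (95% interval -1.60 to -0.08, adjusted p = 0.25, limma) became -0.27 without 42Y replicate 2. Its partner Slc37a4, the glucose 6-phosphate carrier, differed by 0.01 (adjusted p = 0.99) at 42 weeks. For Fbp1 (fructose bisphosphatase), Pcx (pyruvate carboxylase) and Pck2 (the mitochondrial carboxykinase), differences at 42 weeks lay between -0.21 and 0.03, none called.

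Among the regulators, Crtc2, the coactivator that glucagon signalling sends to the nucleus, was at 7.56 and 7.49 in 42Y and 7.34 and 7.66 in 16Y. It was at 7.07 and 6.98 in 42WKK, 6.85 and 7.01 in 6Y, 6.85 and 6.87 in 6K, and 7.35 and 7.19 in group 1. The arrays of 16Y and 42Y lay above 42WKK, 6Y and 6K, and 16Y overlapped with group 1. The difference was 0.50 (standard error 0.13, 95% interval 0.20 to 0.79, adjusted p = 0.10, limma) for 42Y against 42WKK and 0.57 (95% interval 0.28 to 0.86, adjusted p = 0.066) for 16Y against 6Y, so only the F test over groups called it, a call lost whichever array was left out.

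Ppargc1a, a coactivator of gluconeogenic and mitochondrial genes, was at 8.52 and 7.84 in 16Y and 6.57 and 7.22 in 42Y. It was at 7.48 and 7.81 in 42WKK, 7.49 and 7.25 in 6Y, 6.65 and 7.62 in 6K, and 6.88 and 7.75 in group 1. The 16Y arrays were the highest of the 12, and 42Y overlapped with 6K and group 1. Its difference between 42Y and 16Y was -1.29 (95% interval -2.21 to -0.36, adjusted p = 0.21, limma). Creb1, the factor that Crtc2 binds, spanned 0.31 between group means.

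**Figure D3:**
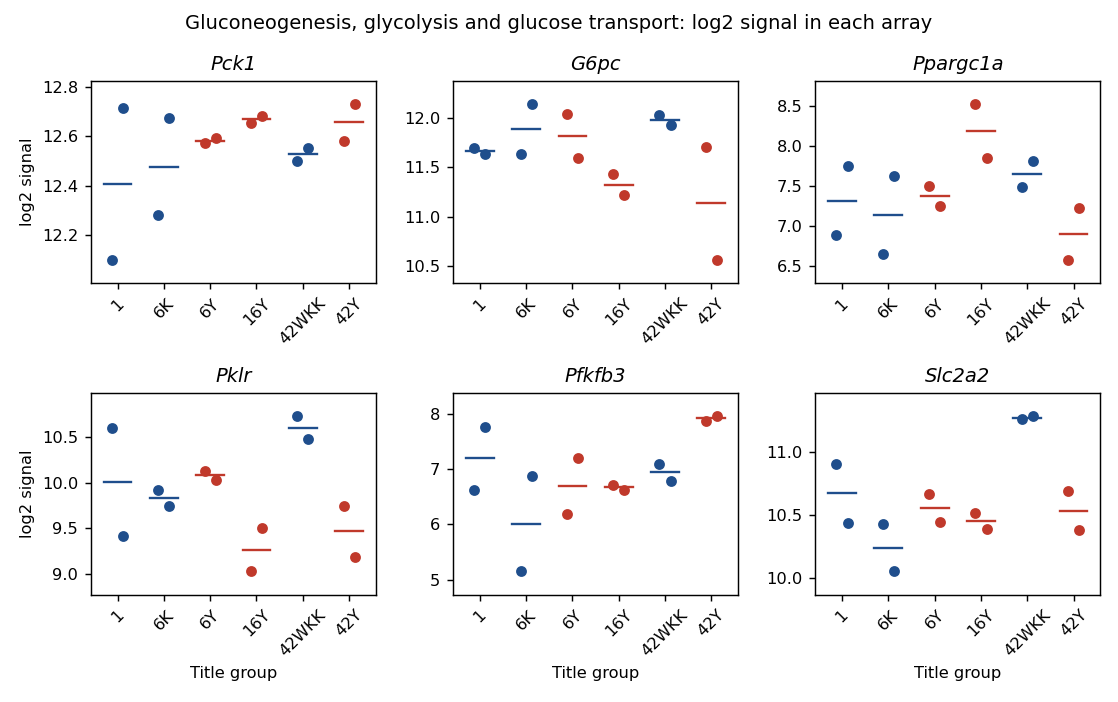
Log2 signal of gluconeogenesis, glycolysis and glucose transport genes by title group, with a dot for each array, a line at the group mean, and red for the groups titled Y. Pck1 spans 0.26 between group means, while Slc2a2 is highest in 42WKK and the 2 arrays of 42Y lie at 11.70 and 10.57 for G6pc.

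In glycolysis, Pklr, the liver pyruvate kinase, was at 9.75 and 9.18 in 42Y and 10.74 and 10.48 in 42WKK. It was at 10.60 and 9.42 in group 1, 9.93 and 9.75 in 6K, 10.13 and 10.04 in 6Y, and 9.03 and 9.50 in 16Y. The arrays of 42Y and 42WKK did not overlap, but the arrays of group 1 alone spanned most of the range of the 12. The difference was -1.14 (95% interval -1.95 to -0.33, adjusted p = 0.15, limma). Pfkfb3, which makes the activator of phosphofructokinase, was at 7.87 and 7.96 in 42Y, above the other 10 arrays, which lay between 5.15 and 7.76, as for 3.09% of all clusters and 3.92% of those with a mean of at least 6. Pairs within groups 1, 6K and 6Y were more than 1 apart, and the 42-week difference of 0.97 had an interval from -0.32 to 2.26 (adjusted p = 0.43, limma).

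Between 16Y and 6Y, 6 of 7 glycolysis genes (85.7%) had lower means in 16Y. So did 43.9% of all clusters and 57.6% of those with a mean of at least 6. The median was -0.33 over the 7 genes and -0.03 over the 30 genes. It was 0.04 over all clusters and -0.05 over those with a mean of at least 6. A further list of glycolysis genes, 17 of them measured, had a median of -0.09 with 1 called, Aldoc, which was lower. None of the 30 was called, where 1.78% of all clusters were called. At an unadjusted p under 0.05 there were 10 (33.3%, against 18.1% of all clusters and 29.2% of those with a mean of at least 6), so the share was near that of genes with like signal. Those lower were Pgam1 (-0.63, adjusted p = 0.10, limma), Pklr, Pgk1, Pfkl, Tpi1 and Pygl, and those higher were Crtc2, Got1, Gpt and Gpt2. Pgk1 and Pgam1, both enzymes of the lower pathway, have near-identical copies in the genome and 3 clusters each. A pair of clusters of Pgk1, and a pair of Pgam1, gave the same values, so these genes cannot be told from their copies. Gckr, the regulatory protein of glucokinase, differed by -0.36 (adjusted p = 0.32, limma) between 42Y and 16Y, the 1 glycolysis gene of 7 lower in that comparison.

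**Figure D4:**
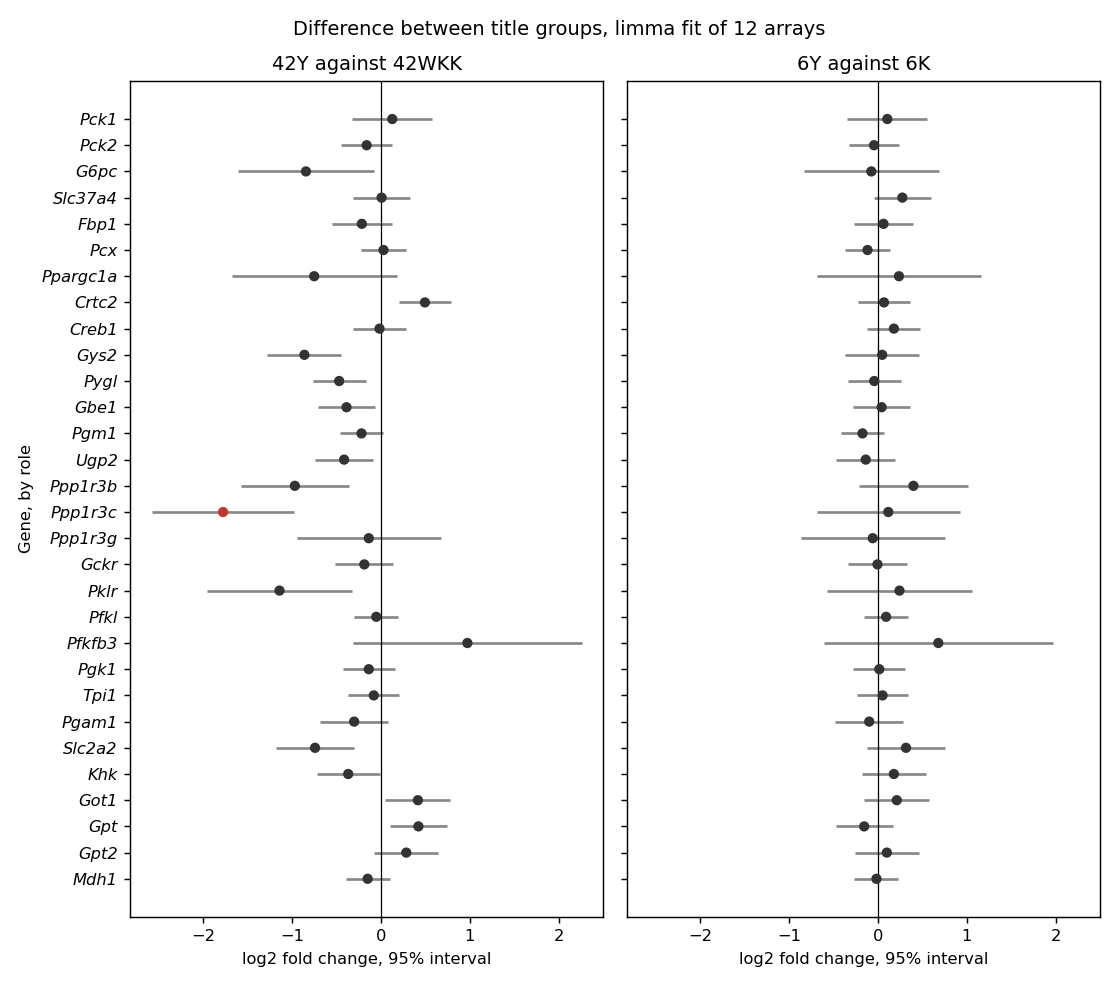
Log2 fold changes of the 30 genes for 42Y against 42WKK and for 6Y against 6K, with points at the estimate, bars for the 95% interval, and red for a call at an adjusted p under 0.05. Ppp1r3c, at -1.78 for 42Y against 42WKK, is the 1 gene called, and for 6Y against 6K every interval includes 0.

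The transaminases pass amino acid carbon into gluconeogenesis. None was called for 42Y against 42WKK, 6Y against 6K, 16Y against 6Y or 42Y against 16Y, and other pairs of groups were not compared. Got1, the cytosolic aspartate aminotransferase, was at 11.28 and 11.07 in 42Y and 11.04 and 11.10 in 16Y. It was at 10.84 and 10.67 in 42WKK, 10.57 and 10.64 in 6Y, 10.35 and 10.43 in 6K, and 9.96 and 10.45 in group 1. The 4 arrays of 16Y and 42Y were the 4 highest, and the 6Y arrays lay below 42WKK. Over all Y groups against 1, 6K and 42WKK the difference was 0.50 (standard error 0.09, 95% interval 0.29 to 0.71, adjusted p = 0.091, limma), past the threshold only when fewer clusters were tested or a variance trend was fitted. In that comparison 16Y and group 1 have no partner with the same title number, so Y and title number cannot be told apart. With the number matched, Got1 differed by 0.21 for 6Y against 6K (adjusted p = 0.94, limma) and by 0.42 for 42Y against 42WKK (adjusted p = 0.23). No gene of the 30 was called over all Y groups, where 0.208% of all clusters were. At an unadjusted p under 0.05 there were 6 (20%, against 12.3% of all clusters and 17.8% of those with a mean of at least 6).

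Gpt, an alanine aminotransferase, was at 9.63 and 9.28 in 42Y, 9.52 and 9.49 in 16Y and 8.99 and 9.08 in 42WKK, with a difference of 0.42 (95% interval 0.10 to 0.75, adjusted p = 0.18, limma) at 42 weeks. Its arrays in group 1, at 9.44 and 9.43, overlapped with 42Y. Gpt2, the mitochondrial form, differed by 0.29 (adjusted p = 0.40). Mdh1, of the malate shuttle, differed by -0.15 (adjusted p = 0.54).

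**Figure D5:**
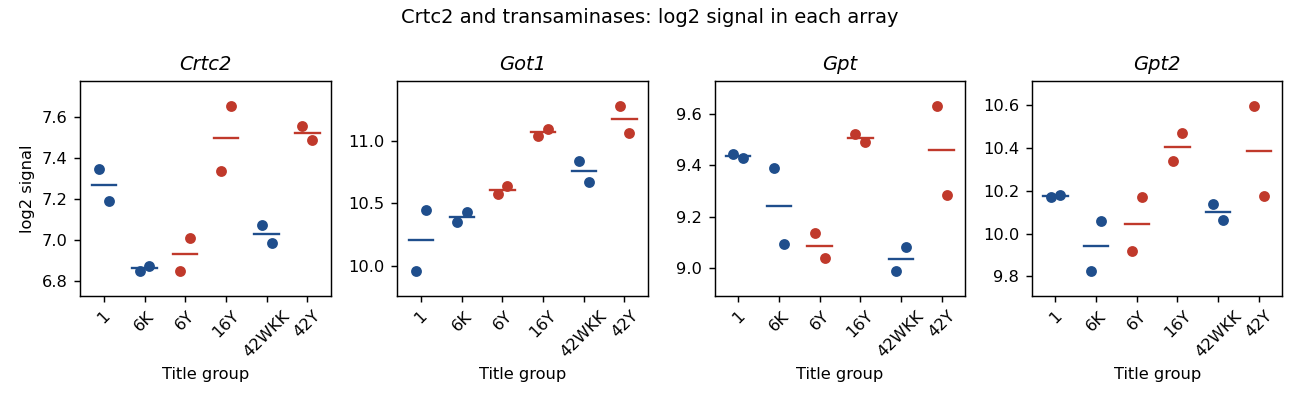
Log2 signal of Crtc2, Got1, Gpt and Gpt2 by title group, with a dot for each array, a line at the group mean, and red for the groups titled Y. The 4 arrays of 16Y and 42Y are the highest for Got1, from 11.04 to 11.28.

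Between 6Y and 6K no gene of the 30 was called, where 0.00281% of all clusters, namely 1 cluster, which reads agouti, was called by limma. At an unadjusted p under 0.05 there were also 0 of 30 (against 5.28% of all clusters and 4.48% of those with a mean of at least 6), and no alternative that was run called any. Over the 30 genes the median difference was 0.06 in log2 signal. Differences ran from -0.17 for Pgm1 to 0.68 for Pfkfb3 (95% interval -0.61 to 1.97), and for Ppp1r3c it was 0.12 (95% interval -0.68 to 0.92). Whether the 42-week difference was larger than this one was tested as an interaction. For Ppp1r3c the 2 differed by -1.89 (95% interval -3.03 to -0.76, adjusted p = 0.17, limma), for Ppp1r3b by -1.37 (adjusted p = 0.19), for Slc2a2 by -1.06 (adjusted p = 0.17) and for Gys2 by -0.91 (adjusted p = 0.20). None was called, where 0.143% of all clusters were, although at an unadjusted p under 0.05 there were 9 of 30 (30%, against 13.2% of all clusters and 20.4% of those with a mean of at least 6).

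At 42 weeks, 13 of the 30 genes (43.3%) had an unadjusted p under 0.05, against 17.3% of all clusters and 27.7% of those with a mean of at least 6. The arrays of 42Y lay wholly below those of 42WKK for 17 genes (56.7%, against 22.7% of all clusters and 35.6% of those with a mean of at least 6). They lay wholly above for 6 genes (20%, against 25.1% and 25.9%). The comparisons 42Y against 42WKK and 42Y against 16Y share the 42Y arrays.

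Other genes of glucose metabolism were read from a list of 115, of which 104 were measured. At 42 weeks 4 fell and 1 rose, which is 4.81% of those measured, against 1.85% of all clusters. For this list and for the clock genes below, the share called among clusters of like signal was not counted. Aldoc, an aldolase, fell by 1.11 (adjusted p = 0.018, limma), at 6.49 and 6.58 in 42Y and 7.71 and 7.58 in 42WKK. Pdk4 and Pdk1, kinases that hold back pyruvate oxidation, fell by 2.12 and 1.10 (adjusted p = 0.030 for both, limma), with both 42WKK arrays of each above the other 10. Cry1, a clock repressor that also restrains gluconeogenesis, fell by 1.46 (adjusted p = 0.020), and Cebpa, a factor of hepatocyte differentiation, rose by 0.93 (adjusted p = 0.020).

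Between 16Y and 6Y, 3 of the 104 fell and 1 rose (3.85%, against 1.78% of all clusters). They were Aldoc (by 1.19, adjusted p = 0.022, limma), Pgd of the pentose phosphate pathway (by 1.09, adjusted p = 0.032), Pygb, the brain form of phosphorylase (by 0.58, adjusted p = 0.037), and Pdk2, which rose by 0.60 (adjusted p = 0.044). Aldoc was thus low in 16Y, at 6.01 and 6.27, and in 42Y, and at 6.48 and 6.44 in group 1. Against 16Y, 42Y had 1 gene called of the 104 (0.962%, against 0.399% of all clusters), Sik1, a kinase that keeps Crtc2 out of the nucleus, which rose by 1.45 (adjusted p = 0.042). Between 6Y and 6K none of the 104 was called, and limma's F test over the 6 groups called 12 of them (11.5%, against 5.43% of all clusters).

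Several genes of the circadian clock set the 42Y arrays apart in the same samples, and some differed between 16Y and 6Y too. Of 16 measured clock genes 8 were called at 42 weeks, where 1.85% of all clusters were called. Cry1, counted above among the other genes of glucose metabolism, is also among these clock genes. For 16Y against 6Y 3 were called, Nr1d1, Nr1d2 and Tef, where 1.78% of all clusters were. Arntl, the core activator that binds the E-box, was at 5.62 and 5.67 in 42Y and between 7.30 and 7.74 in the other 10 arrays. Dbp, an output gene that peaks at the opposite phase, was at 7.81 and 9.01 against 5.62 to 6.26, and Nr1d1, a repressor of Arntl, at 10.47 and 10.21 against 5.95 to 9.15. The median signal of 5 measured neutrophil and monocyte genes was 5.53 and 5.54 in 42Y and 4.45 and 4.86 in 42WKK, and their summed signal was 8.96 to 9.34 against 8.63 to 8.65. None of the 5 was called, and the summed signal was highest in 6Y replicate 2, at 9.60. Of 5 sinusoidal endothelium genes, 2 (Kdr and Clec4g) were called lower for 16Y against 6Y, where 1.78% of all clusters were called. The part of the clock or of cell types in the differences of glycogen genes was not tested.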

How the data were processed

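Gene expression was read on 12 Affymetrix arrays. The authors deposited log2 values for 35556 transcript clusters, made with Affymetrix Expression Console, which the submitters' notes name, and the robust multichip (sketch) method of the study's methods. An exon array is named in the methods, whereas these clusters belong to the mouse gene array, and their build was not given in the sources used here. Of the clusters 21789 carried 1 symbol, 1621 several and 12146 none, and 21698 were named through GRCm38.p6 annotation. Groups were compared in R 4.3.3 by limma 3.58.1, with 6 group means, 6 residual degrees of freedom, moderated variances without a trend, Benjamini-Hochberg adjustment over all clusters and intervals of 95%. The precision is limited by the number of arrays. Simulated data were used to check the fit.

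The genes and lists were chosen with earlier results of these data known. Array values are given for genes called in any comparison, those whose group means spanned at least 1, and Pck1, G6pc, Pklr, Gys2, Pygl and Slc2a2. For Ppp1r3b, Pfkfb3 and Pygl some of the arrays are given as a range. A few other genes were named after their values were seen. Of other pathway genes, those with the smallest p are named, and Pdk1, outside the 4 of that rule, completes its count. Alternatives covered between-array scaling, a filter on low signal, a variance trend, clusters with 1 symbol, single arrays or groups left out, ANOVA, which a table header of the study names, and replicate numbers as a block.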

Additional observations from a re-analysis of the deposited data

How the results depend on the processing

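Counts of the 30 genes called depended on how many clusters were tested and which arrays were in the fit. At 42 weeks (1 gene) the count was 6 (5 lower, 1 higher) over clusters with a mean log2 of at least 6, 4 over clusters with 1 symbol and 2 with a variance trend. It was 0 with quantile normalization, without the arrays titled 6K, with the 4 arrays alone and with ANOVA adjusted for multiple tests, and 5 with ANOVA unadjusted. Leaving out each array in turn gave 0 to 2, with only the leaving out of 42Y replicate 2 keeping Ppp1r3c. For 42Y against 16Y (1 gene) the count was 2 over clusters with a mean of at least 6 and 2 over those with 1 symbol, 0 to 2 with an array left out, and 0 from the 4 arrays of these groups. For 16Y against 6Y (0 genes) these were 4 with the filter, 2 with 1 symbol and 1 with the trend, and 0 with any array left out. For 6Y against 6K all alternatives gave 0. For all Y groups the count of 0 became 1 (Got1) with the filter, with the trend and with 1 symbol. The interaction went from 0 to 1 (Slc2a2) with the filter, and was 0 to 1 with an array left out. The F test (3 genes) called 11 with the filter, 8 with the trend, 10 with 1 symbol, and 0 to 2 with an array left out. Over all clusters the 42-week calls went from 659 to 1721 with the filter, 1113 with the trend, 1000 with 1 symbol, 360 without 6K, 52 to 500 with an array left out, and 0 with the 4 arrays alone. With the filter, 28 of the 30 genes were among the 11788 clusters tested. The F test then called 5121 of these clusters beside 11 of the 28 genes. For 16Y against 6Y it was 2011 clusters beside 4 genes, and for 42Y against 16Y 807 beside 2. All Y groups gave 548 beside 1, and the interaction 622 beside 1. With 1 symbol the F test called 3402 of 21789 clusters, and with the trend 3749 of 35556. Calls thus rose over all clusters as well. Of the 12 genes chosen for their array values, none changed direction for 42Y against 42WKK, nor did Ppp1r3c for 42Y against 16Y. Directions of other genes were not recomputed. The cause was not tested beyond the number of clusters and arrays in each fit.

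Between 6K, 6Y, 16Y and 42Y, which share replicate numbers 1 and 2, the correlations of deviations from group means were -0.036 to 0.055. That shows no large effect shared by replicate number, but it cannot tell whether the samples were paired. With the replicate numbers as a block over 8 arrays, 0 genes were called for 42Y against 16Y, for 16Y against 6Y and for 6Y against 6K. The fit of the same 8 arrays without the block, added after seeing the data, also called 0 in each. For comparisons that include 42WKK or group 1, no paired analysis was possible because these groups share no numbers with the others. A lone array left in a group was taken to vary like the other groups. With 2 arrays in each group the intervals are wide, and genes that missed the threshold are not shown to be alike.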
